A study of Mus musculus with 6 samples.

Results

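The 8 genes Hoxb2 to Hoxb9 of the mouse Hoxb cluster were followed through 6 poly(A) RNA libraries of BCR-ABL-transformed pro-B leukaemia cells. They were chosen by symbol, and hold 9 transcript rows (Hoxb3 has 2) of the 26531 rows, or 8 of 22098 gene symbols, in the deposited table. All cells came from whole bone marrow of C57BL/6 mice, transduced on day 0 with a retrovirus carrying BCR-ABL p185, a leukaemogenic fusion tyrosine kinase, and the fluorescent reporter YFP. The marrow was wild type (wt), Ikaros_ZnF1-/- or Ikaros_ZnF4-/-. These mutants lack zinc finger 1 or zinc finger 4 in the DNA-binding domain of Ikaros, a lymphoid transcription factor encoded by Ikzf1, and are called ZnF1 and ZnF4 cells below. The study asks what each finger does in these cells. Each genotype has 1 library at day 21 and 1 at day 28 of culture, so n = 2 per genotype. The labels do not say whether the days came from separate cultures or how many animals gave the marrow. So p-values measure only the spread between these libraries, partly borrowed from other genes by the fit, and that spread may be technical. In bulk RNA, fewer cells of a type and less RNA per cell cannot be told apart.

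Hox genes encode homeodomain transcription factors that sit in clusters on the chromosome and are all read in the same direction within a cluster. Along the body axis of the embryo their order in the cluster matches the order in which they are switched on, with low numbers at the 3′ end used first and nearest the head. In blood, several Hox genes are active in stem and early progenitor cells and fall silent as cells mature, and Polycomb and MLL complexes hold those states. Their proteins bind DNA together with cofactors of the Pbx and Meis families. Enforced Hoxb4 expands haematopoietic stem cells, and enforced Hoxb8 keeps myeloid progenitors in growth.

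The proteins are near relatives, and their coding sequences show how far reads of one gene could be taken for another. The 180-base stretch that Hoxb7 shares best with the other 7 members lies in the homeobox, which encodes the DNA-binding homeodomain. It is given here 5′ to 3′ for the 3 members with the largest differences from wild type in ZnF4 cells, from GENCODE M21 transcripts matched by RefSeq identifier, with bases that differ from Hoxb7 in capitals. The stretch covers coding bases 412 to 591 in Hoxb7 and 439 to 618 in Hoxb6 and in Hoxb8.
Hoxb7: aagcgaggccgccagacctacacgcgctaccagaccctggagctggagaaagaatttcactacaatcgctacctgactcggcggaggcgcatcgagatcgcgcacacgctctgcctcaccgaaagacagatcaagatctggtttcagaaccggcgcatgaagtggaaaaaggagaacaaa
Hoxb6: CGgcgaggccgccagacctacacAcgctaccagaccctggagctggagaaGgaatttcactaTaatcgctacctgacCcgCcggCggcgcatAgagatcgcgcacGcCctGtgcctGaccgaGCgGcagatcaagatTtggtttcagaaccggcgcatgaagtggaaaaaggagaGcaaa
Hoxb8: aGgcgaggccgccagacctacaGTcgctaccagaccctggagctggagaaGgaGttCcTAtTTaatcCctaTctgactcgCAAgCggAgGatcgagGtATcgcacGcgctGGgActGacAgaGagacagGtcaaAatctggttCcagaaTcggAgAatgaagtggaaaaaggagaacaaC
Hoxb6 is the closest to Hoxb7, with 90% identity (18 bases differ), and Hoxb8 has 80.6%. The longest run of identical bases between whole transcripts was 37 for Hoxb6 and Hoxb7, 29 for Hoxb6 and Hoxb8, and 26 for Hoxb7 and Hoxb8. Over the 28 pairs of members the longest run was between 12 and 37 bases. Among these 8 genes, with 1 transcript compared for each, a read longer than that, placed without mismatch in the sense direction, therefore fits only 1. Reverse complements and the other Hoxb3 transcript were not compared. Transcripts of the Hoxa, Hoxc and Hoxd clusters were not compared. The read length was not given in the sources used here.

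Wild type cells carried almost no Hoxb transcripts other than Hoxb4. In ZnF1 cells Hoxb3, Hoxb5, Hoxb6 and Hoxb7 rose from values at or near 0, and in ZnF4 cells Hoxb5, Hoxb6, Hoxb7 and Hoxb8 were several times higher still. The difference was largest at Hoxb7 in both mutants, and Hoxb9 was listed at 0 in all 6 libraries. Values are RPKM (reads per kilobase of transcript, scaled to the total of mapped reads), which allow levels of different genes to be set side by side. They were deposited with 1 decimal, so an entry of 0 means less than 0.05 RPKM. Rises from low wt values were common in ZnF1 cells. Of the 801 genes tested below that had less than 1 RPKM in both wt libraries, 83.3% were called higher in ZnF1 cells. In ZnF4 cells 28.3% of them were.

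Summed over the 8 genes, the level was 1.9 and 2.3 RPKM in wt cells at day 21 and day 28, 7.8 and 8.8 RPKM in ZnF1 cells, and 36.1 and 28 RPKM in ZnF4 cells. The genotypes did not overlap. The make-up of the sum differed as well. Hoxb4 gave 89.5% and 95.7% of it in wt cells, 35.9% and 33% in ZnF1 cells, and 6.93% and 8.57% in ZnF4 cells. Hoxb5 to Hoxb8 together gave 5.26% and 0% in wt cells, 53.8% and 58% in ZnF1 cells, and 90.3% and 87.9% in ZnF4 cells.

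**Figure D1:**
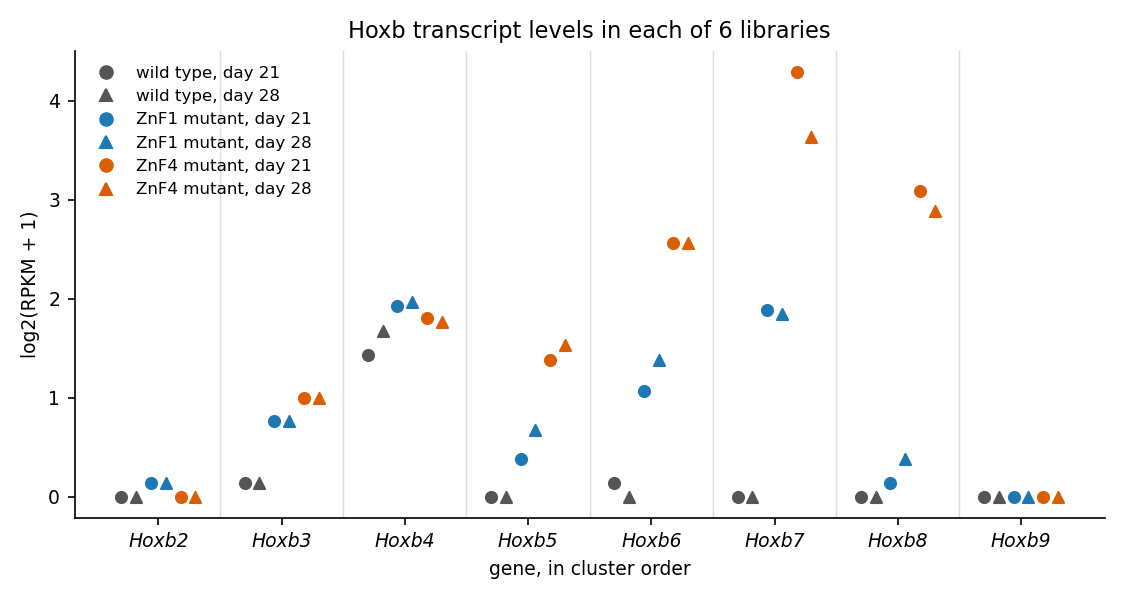
Level of each Hoxb gene as log2(RPKM + 1) on the vertical axis, with the genes in cluster order on the horizontal axis; each point is 1 library, coloured by genotype, with circles for day 21 and triangles for day 28. Hoxb4 stands between 1.7 and 2.9 RPKM in all libraries, while Hoxb5 to Hoxb8 separate the genotypes, with ZnF4 cells highest at 18.6 and 11.4 RPKM for Hoxb7.

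Genotypes were compared with limma on log2(RPKM + 1), fitted to all 6 libraries with genotype and day as terms. Differences are on that scale with their standard error, which understates the change of low genes, and a call means an adjusted p (Benjamini-Hochberg) below 0.05 over the 11379 genes that reached 1 RPKM in at least 2 libraries. Of the 8 genes, 6 (Hoxb3 to Hoxb8) reached that level, and Hoxb2 and Hoxb9 did not. Hoxb4 alone among them reached it in wt cells. The other 5 entered the test through mutant libraries, so that a difference from wild type was built into their being tested, and their number is no support for it. Hoxb3, Hoxb5 and Hoxb8 entered through ZnF4 libraries alone, so the same holds for their excess over ZnF1 cells. Hoxb3 lies just inside the limit, at 1 RPKM in both ZnF4 libraries, and Hoxb2, at most 0.1 RPKM, lies outside. The fit shares spread between genes, so each standard error rests partly on other genes. Hoxb5, Hoxb7 and Hoxb8, listed at 0 in both wt libraries, show no spread there, as the rounding hides any.

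Against wild type, 5 of the 6 tested genes were called higher in ZnF4 cells, where 10.9% of all tested genes were. Among the 801 tested genes below 1 RPKM in both wt libraries, as these 5 were, 28.3% were called higher in ZnF4 cells. In ZnF1 cells 5 of 6 were called higher as well, beside 22.9% of all tested genes and 83.3% of those 801, in which class 4 of 5 Hoxb genes (all but Hoxb8) were called. Called in either direction were 38.1% of all tested genes in ZnF1 cells and 18.2% in ZnF4 cells, and none of the 6 Hoxb genes was called lower in either (15.2% and 7.32% of all genes were). Quantile scaling moved the split over all genes in ZnF1 cells from 2606 higher and 1730 lower to 2114 higher and 2879 lower. The count in ZnF1 cells fell to 2 Hoxb genes when the day 21 or the day 28 library of wild type was dropped, and to 3 when either ZnF1 library was. In ZnF4 cells the count fell to 3 without their day 28 library. The median difference of the 6 genes was 1.97 in ZnF4 cells and 0.58 in ZnF1 cells, beside 0.02 and -0.02 over all tested genes. The 2 comparisons share the wt libraries. Directly between the mutants, 4 of 6 were called higher in ZnF4 cells, where 22.3% of all tested genes were, and the median difference was 1.13, beside 0.03 over all tested genes. Since 3 of the 6 were tested only because of their ZnF4 values, neither the count nor the median is support for a difference. None was lower there, and over all tested genes 45.5% were called in either direction and 23.2% were called lower in ZnF4 cells.

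Counted by RPKM alone, all 6 tested genes had both libraries of each mutant above both of wild type, as had 34.7% of all tested genes in ZnF1 cells and 30.9% in ZnF4 cells. The opposite held for 33.4% and 24.6%. Between the mutants 5 of the 6 were higher in both ZnF4 libraries, beside 37% of all tested genes, and Hoxb4 was lower, beside 32.6%. The entry of 5 genes through mutant libraries, and of 3 of them through ZnF4 libraries alone, bears on these counts in the same way.

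**Figure D2:**
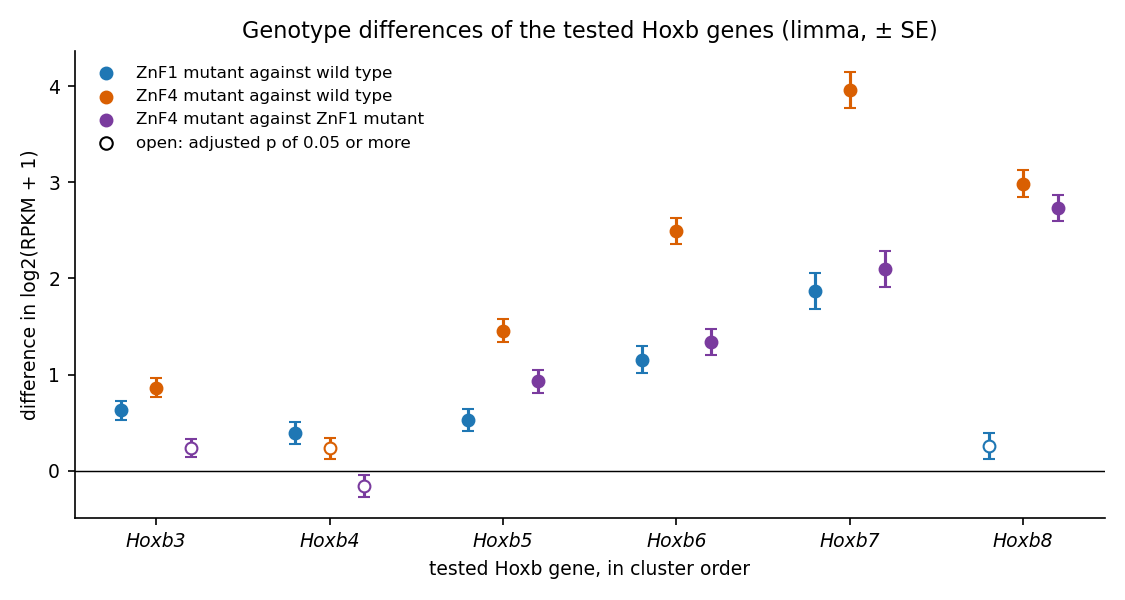
Difference in log2(RPKM + 1) on the vertical axis, with its standard error as bars, for the 6 tested Hoxb genes in cluster order; colours mark the 3 genotype comparisons (limma, 2 libraries per genotype) and open points have an adjusted p of 0.05 or more. The ZnF4 differences from wild type are 0.86 at Hoxb3 and 0.23 at Hoxb4, climb to 3.96 at Hoxb7 and are 2.99 at Hoxb8.

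At the 3′ end, Hoxb2, which patterns the hindbrain, was listed at 0 in both wild type and both ZnF4 libraries and at 0.1 RPKM in both ZnF1 libraries. That is 1 step of the rounding. Hoxb3, a neighbour of Hoxb4 that acts with it in the regeneration of blood stem cells, was low in all genotypes. Its main transcript row had 0.1 RPKM in both wt libraries, 0.7 RPKM in both ZnF1 libraries and 1 RPKM in both ZnF4 libraries. No genotype overlapped another. Within each genotype the 2 days were alike after rounding, so the standard errors of Hoxb3 came wholly from the spread of other genes. Hoxb3 was higher by 0.63 ± 0.10 in ZnF1 cells (adjusted p = 0.0071) and by 0.86 ± 0.10 in ZnF4 cells (adjusted p = 0.00528). The difference between the mutants, 0.23 ± 0.10, was not called (adjusted p = 0.104), though it was with quantile scaling (0.57, adjusted p = 0.00696). It was also called without a filter (adjusted p = 0.012), where its standard error was only 0.02. The unfiltered fit called Hoxb2 between the mutants too (-0.14 ± 0.01, adjusted p = 0.00913), for 1 step of the rounding, so its call of Hoxb3 is no support. With quantile scaling the ZnF1 difference was 0.37. Dropping either wt library ended the ZnF1 call (adjusted p up to 0.0567), and dropping a wt library or a ZnF4 library, whichever of the 4, ended the ZnF4 call (adjusted p up to 0.0601).

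The second Hoxb3 row, a transcript with another start, was listed at 0 in wt cells, 0.1 RPKM in both ZnF1 libraries, and 0.1 and 0.2 RPKM in ZnF4 cells. In GENCODE M21 the matched transcripts of the 2 rows share 1559 exon bases, which is 48.9% of the first and 82.5% of the second, so how reads were split between them is uncertain. The antisense gene Hoxb3os covers 70.5% of the exon bases of the first Hoxb3 transcript and 58.5% of those of Hoxb2. No strand-marking step is named in the labels, so reads of Hoxb3 and Hoxb2 could not be told from antisense reads. For Hoxb5 the antisense gene Hoxb5os covers 5.28% of the exon bases. No antisense exon of these 2 genes overlaps the matched transcripts of Hoxb4, Hoxb6, Hoxb7, Hoxb8 or Hoxb9.

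Hoxb4 was present in every library, at 1.7 and 2.2 RPKM in wt cells, 2.8 and 2.9 RPKM in ZnF1 cells, and 2.5 and 2.4 RPKM in ZnF4 cells. Both mutants lay above wild type in RPKM. At day 21 its level in ZnF4 cells was 1.47 times that of wild type (1.4 to 1.55 within the rounding), and at day 28 it was 1.09 times (1.04 to 1.14). Hoxb4 was not called in ZnF4 cells (0.23 ± 0.11, adjusted p = 0.229) nor between the mutants (-0.16 ± 0.11, adjusted p = 0.297). Its rise in ZnF1 cells passed narrowly (0.39 ± 0.11, adjusted p = 0.0453). It no longer passed when any of the 6 libraries was dropped (adjusted p 0.062 to 0.261), with a pseudocount of 0.1 (adjusted p = 0.0528) or without a filter (adjusted p = 0.0771), and the difference was -0.01 with quantile scaling (adjusted p = 0.973).

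Hoxb5, which marks long-term blood stem cells in mice, was listed at 0 in both wt libraries. It had 0.3 and 0.6 RPKM in ZnF1 cells and 1.6 and 1.9 RPKM in ZnF4 cells, and the genotypes did not overlap. Hoxb5 was higher by 1.46 ± 0.12 in ZnF4 cells (adjusted p = 0.00206), which no longer passed once its day 28 library was dropped (adjusted p = 0.0534). In ZnF1 cells it was higher by 0.53 ± 0.12 (adjusted p = 0.0215), which failed once a wt library or a ZnF1 library, whichever of the 4, was dropped (adjusted p up to 0.136). Between the mutants the difference was 0.93 ± 0.12 (adjusted p = 0.00271), and the ZnF4 level was 5.33 times the ZnF1 level at day 21 and 3.17 times at day 28.

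Hoxb6, which is linked to early myeloid and erythroid progenitors, had 0.1 and 0 RPKM in wt cells, 1.1 and 1.6 RPKM in ZnF1 cells, and 4.9 RPKM in both ZnF4 libraries. The 3 genotypes stood apart without overlap. It was higher by 2.49 ± 0.14 in ZnF4 cells (adjusted p = 0.000968) and by 1.16 ± 0.14 in ZnF1 cells (adjusted p = 0.00308). Its level in ZnF4 cells exceeded that in ZnF1 cells by 1.34 ± 0.14 (adjusted p = 0.00142), or 4.45 times at day 21 and 3.06 times at day 28.

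Hoxb7, known from the ureteric bud of the kidney and from several tumours, reached the highest level of any Hox gene in these libraries. It was listed at 0 in both wt libraries, and had 2.7 and 2.6 RPKM in ZnF1 cells and 18.6 and 11.4 RPKM in ZnF4 cells. At day 21 in ZnF4 cells, 82.1% of all gene symbols had a lower RPKM, and at day 28 74.5% had. Hoxb7 was higher by 3.96 ± 0.19 in ZnF4 cells (adjusted p = 0.000713), which ranks 4 of 11379 tested genes by the size of the rise. In ZnF1 cells it was higher by 1.87 ± 0.19 (adjusted p = 0.00195; rank 280). Between the mutants it differed by 2.09 ± 0.19 (adjusted p = 0.000991), or 6.89 times at day 21 and 4.38 times at day 28.

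Hoxb8, the growth-promoting factor of myeloid progenitors, separated the mutants most. It was listed at 0 in wt cells, at 0.1 and 0.3 RPKM in ZnF1 cells, and at 7.5 and 6.4 RPKM in ZnF4 cells. Hoxb8 was higher by 2.99 ± 0.14 in ZnF4 cells (adjusted p = 0.000691; rank 19 of 11379). In ZnF1 cells the difference of 0.26 ± 0.14 was not called (adjusted p = 0.187), though it was with a pseudocount of 0.1 (1.5, adjusted p = 0.0315). The mutants differed by 2.73 ± 0.14 (adjusted p = 0.000406). Their ratio was 75 at day 21, with 49.7 to 151 allowed by the rounding, and 21.3 at day 28, with 18.1 to 25.8 allowed.

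The differences of Hoxb6 and Hoxb7 in all 3 genotype comparisons, and of Hoxb8 in the 2 that called it, kept their direction without any 1 of the 6 libraries. Over those fits the ZnF4 difference from wild type was 2.35 to 2.64 for Hoxb6, 3.64 to 4.28 for Hoxb7 and 2.83 to 3.15 for Hoxb8. The fits kept the genes that had passed the filter on all 6 libraries. Hoxb8 passed through the 2 ZnF4 libraries alone and would not be tested without either, so its fits without 1 of them are no support. Next along the cluster, Hoxb9, a gene of posterior patterning, was listed at 0 in all 6 libraries. The neighbours on either side of Hoxb8 thus stood at 11.4 RPKM or more (Hoxb7) and at 0 (Hoxb9) in ZnF4 cells.

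**Figure D3:**
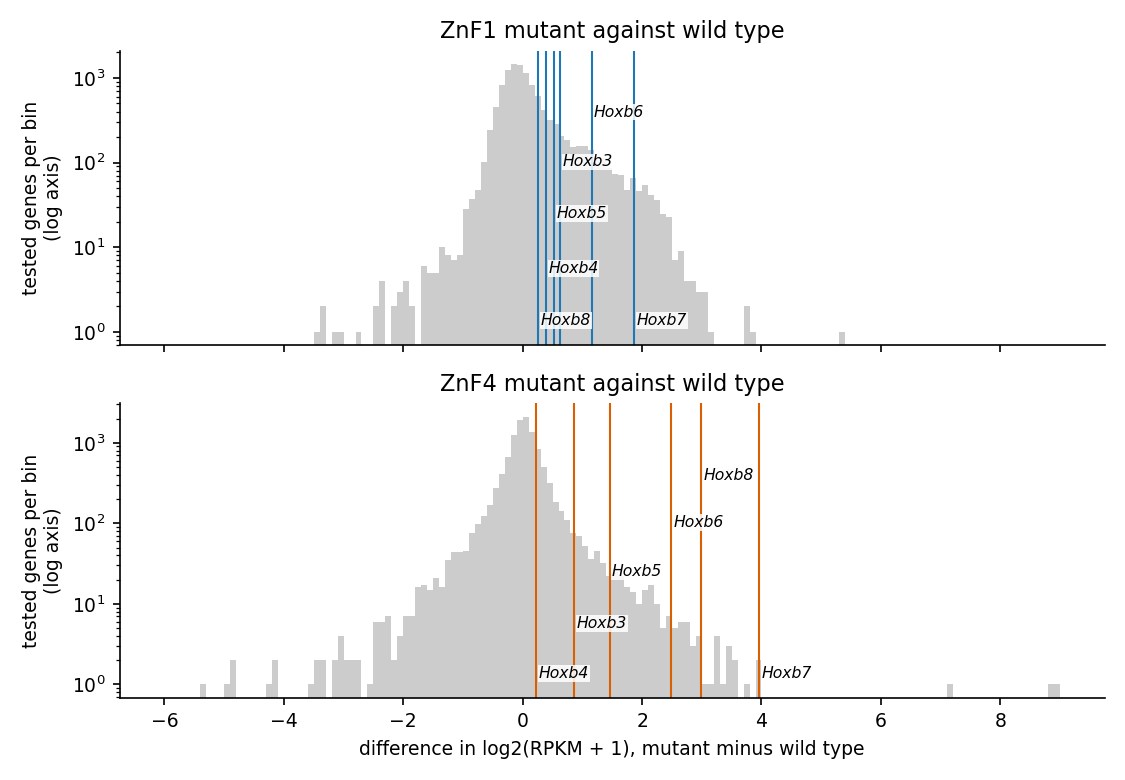
Number of tested genes (log axis) by their difference in log2(RPKM + 1) from wild type, in ZnF1 cells (top) and ZnF4 cells (bottom), in bins of 0.1; coloured lines mark the 6 tested Hoxb genes. Hoxb6, Hoxb7 and Hoxb8 lie in the far right tail of the ZnF4 panel, at 2.49, 3.96 and 2.99.

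The order of levels differed between genotypes. In wild type Hoxb4 was the highest, and Hoxb3 and Hoxb6 were at or below 0.1 RPKM. In ZnF1 cells Hoxb4 (2.8 and 2.9 RPKM) was followed by Hoxb7 (2.7 and 2.6 RPKM), a gap of 1 rounding step at day 21. Then came Hoxb6, Hoxb3, Hoxb5, Hoxb8 and Hoxb2, and the ranges of Hoxb3 and Hoxb5 stood 0.1 RPKM apart while those of Hoxb5 and Hoxb8 met at 0.3 RPKM. In ZnF4 cells the order was Hoxb7, Hoxb8, Hoxb6, Hoxb4, Hoxb5, Hoxb3, and no 2 neighbours in that order overlapped over the 2 days.

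From day 21 to day 28 none of the 6 tested genes changed by the limma test, with adjusted p between 0.506 and 1, and 0% of all tested genes were called. At an unadjusted p below 0.05 there were 1631 genes, and 0 of the 6. The largest fall was that of Hoxb7 in ZnF4 cells, from 18.6 to 11.4 RPKM, beside 2.7 and 2.6 RPKM in ZnF1 cells. With 1 library per genotype and day, no test of genotype against day was possible.

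Over the 6 libraries, Hoxb5, Hoxb6, Hoxb7 and Hoxb8 followed each other, with Pearson coefficients of log2(RPKM + 1) from 0.912 (Hoxb7 and Hoxb8) to 0.988 (Hoxb6 and Hoxb7). Hoxb3 followed them at 0.903 (Hoxb5), 0.951 (Hoxb6 and Hoxb7) and 0.761 (Hoxb8). Hoxb4 correlated with Hoxb5 to Hoxb8 at 0.174 to 0.517 and with Hoxb3 at 0.707. These coefficients rest on 6 points in 3 genotypes, and the genes share libraries. Hoxb3 and Hoxb5 to Hoxb8 were tested only through mutant libraries, so profiles low in wt cells were built in. High coefficients between them are therefore no support for a link between these genes. The genes outside the cluster most like each member were found in the same way. For Hoxb7 they were Aldoc (aldolase C, 0.995), Kit (the stem cell factor receptor, 0.995) and Trpc4 (a cation channel, 0.995). Kit had 0.1 and 0 RPKM in wt cells, 2.6 and 1.8 RPKM in ZnF1 cells, and 17.4 and 12.5 RPKM in ZnF4 cells, close to Hoxb7 in each library. For Hoxb8 they were Celf4 (an RNA-binding protein gene, 0.9999), Igf2as (0.999) and Prdm8 (0.999), and for Hoxb6 Ltbp4, Zfp862 and Cmtm4 (0.995 to 0.998). For Hoxb5 they were Pde4dip, Pkdcc and Khk (0.996 each), for Hoxb3 Dnajb5, Dync1li2 and Lysmd2 (0.996 to 0.9998), and for Hoxb4 Ctla2b, Tbk1 and Slc25a14 (0.975 to 0.987).

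Of the genes around the 8, Hoxb1 and Hoxb13, the end genes of the cluster, were listed at 0 in all libraries, as were the neighbours Ttll6 and Calcoco2. The hairpin rows of Mir10a and Mir196a-1, microRNA genes within the cluster, were also listed at 0, but poly(A) libraries do not capture mature microRNAs. Skap1, an adaptor gene of T cells and the neighbour beyond Hoxb1, had 0.1 and 0 RPKM in wt cells, 1.3 and 1 RPKM in ZnF1 cells, and 1 and 0.6 RPKM in ZnF4 cells. Tested through its mutant libraries, it was higher in both mutants (1.03 ± 0.10, adjusted p = 0.00205, and 0.77 ± 0.10, adjusted p = 0.00904). Further neighbours named with it, Snx11, Cbx1 and Nfe2l1, were not called in ZnF4 cells. Cbx1 was lower in ZnF1 cells (-0.38 ± 0.10, adjusted p = 0.0311). Of 13 neighbour and non-coding entries 10 matched a symbol, and Prac1, Hoxb5os and Hoxb3os did not.

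Genes of the other Hox clusters were low in ZnF4 cells. The 29 Hoxa, Hoxc and Hoxd genes together summed to 1.3 and 0.3 RPKM in wt cells, 6.8 and 6.5 RPKM in ZnF1 cells, and 0.7 and 0.4 RPKM in ZnF4 cells. No single one exceeded 0.2 RPKM in a ZnF4 library. The highest were Hoxc10 (1.3 and 1.2 RPKM in ZnF1 cells), Hoxc6 (1 RPKM in both ZnF1 libraries), Hoxa10 (0.7 and 0.6 RPKM) and Hoxa5 (0.6 RPKM in both). Hoxc10 and Hoxc6 were the only 2 of the 29 that were tested. Both were higher in ZnF1 cells than in wt cells (0.97 ± 0.10 and 0.80 ± 0.10, adjusted p = 0.00204 and 0.00398) and higher than in ZnF4 cells by 0.97 ± 0.10 and 0.86 ± 0.10 (adjusted p = 0.00138 and 0.00227). They were tested only because of their ZnF1 values, which built in that direction, and 83.3% of tested genes below 1 RPKM in both wt libraries were called higher in ZnF1 cells.

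**Figure D4:**
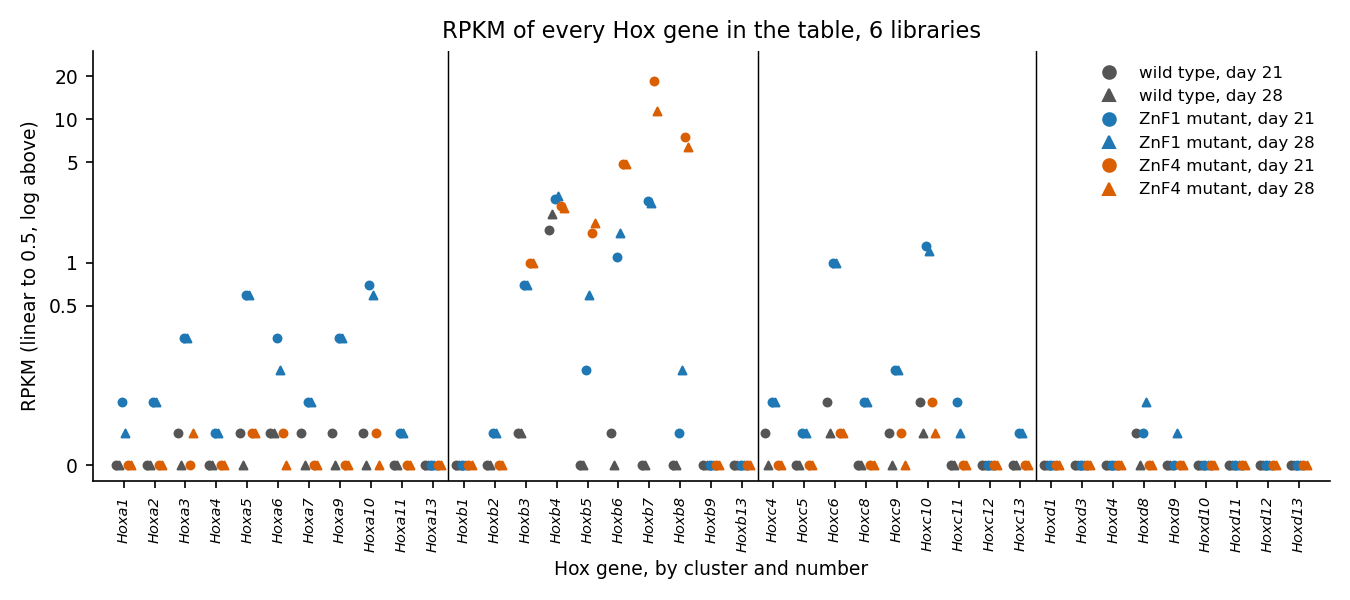
RPKM of every Hox gene in the table (vertical axis, linear up to 0.5 and logarithmic above), ordered by cluster and number; each point is 1 library, with colour for genotype and shape for day. In ZnF4 cells the Hoxb3 to Hoxb8 block stands between 1 and 18.6 RPKM, and no Hoxa, Hoxc or Hoxd gene exceeds 0.2 RPKM.

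Genes that work with or on Hox genes were read from 4 fixed lists. Of the 9 cofactors of the Pbx, Meis and Pknox families 6 were tested. In ZnF4 cells 1 was higher and 0 lower, with a median of -0.19, and in ZnF1 cells 3 were higher and 1 lower, with a median of 0.51. Pbx3, a Hox partner, had 0.6 and 0.3 RPKM in wt cells, 3.9 and 2.6 RPKM in ZnF1 cells and 4.7 RPKM in both ZnF4 libraries. Pbx3 too was below 1 RPKM in wt cells and was tested through its mutant libraries. It was higher by 1.98 ± 0.14 in ZnF4 cells (adjusted p = 0.00142) and by 1.54 ± 0.14 in ZnF1 cells (adjusted p = 0.00152). Meis1, the cofactor of Hox genes in myeloid leukaemia, had 0.4 and 0.1 RPKM in wt cells, 1.1 and 0.6 RPKM in ZnF1 cells and 0.1 RPKM in both ZnF4 libraries. Pknox1, a Pbx-binding relative, was lower in ZnF1 cells (-0.61 ± 0.07, adjusted p = 0.00267) and not called in ZnF4 cells (-0.25 ± 0.07, adjusted p = 0.0666).

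All 15 genes of the MLL complex and its partners, which keep Hox genes active, were tested. In ZnF4 cells 0 were called against wild type (median 0.05), and in ZnF1 cells 6 were lower and 0 higher (median -0.19). Mll1, the methyltransferase itself, had 24.2 and 19.6 RPKM in wt cells and 20 and 20.2 RPKM in ZnF4 cells. Kdm6b, a demethylase of the Polycomb mark, and Ash2l, an MLL complex subunit, had the smallest p in ZnF4 cells (0.43 ± 0.12, adjusted p = 0.066, and 0.20 ± 0.06, adjusted p = 0.0983).

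Of 16 Polycomb genes, which keep Hox genes silent, 4 were higher and 0 lower in ZnF4 cells (median 0.06). They were Phc1 (0.56 ± 0.09, adjusted p = 0.0145), Pcgf2 (0.82 ± 0.14, adjusted p = 0.0168), Cbx2 (0.46 ± 0.08, adjusted p = 0.0171) and Rnf2 (0.33 ± 0.07, adjusted p = 0.0399), all of Polycomb repressive complex 1. Rnf2 falls outside the rule for named genes and was added after its value was seen. In ZnF1 cells 5 were lower and 0 higher (median -0.07). Ezh2, the methyltransferase that writes the Polycomb mark, had 199.8 and 198.5 RPKM in wt cells and 168.6 and 158.9 RPKM in ZnF4 cells, which was not called (-0.28 ± 0.09, adjusted p = 0.0909). In ZnF1 cells it had 130.9 and 145.8 RPKM and was lower (-0.52 ± 0.09, adjusted p = 0.00927).

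Of 16 factors described as direct regulators of Hoxb genes 11 were tested, and in ZnF4 cells 1 was higher and 1 lower (median 0.06). The higher one was Rxra, a partner of retinoic acid receptors, with 2.4 and 2 RPKM in wt cells, 6.7 and 6 RPKM in ZnF1 cells and 7.4 RPKM in both ZnF4 libraries (1.40 ± 0.09 in ZnF4 cells, adjusted p = 0.00141). The lower one was the retinoic acid receptor gene Rara, with 10.8 and 12.2 RPKM in wt cells, 8.4 and 9 RPKM in ZnF1 cells and 4.3 and 5.6 RPKM in ZnF4 cells (-1.08 ± 0.09, adjusted p = 0.0025). Cdx4, a homeobox gene that activates Hox clusters in the embryo, was listed at 0 in all libraries, as were Cdx1 and Cdx2. In ZnF1 cells 2 of the 11 were higher and 2 lower (median -0.06). Beside the counts of these 4 lists, 10.9% of all tested genes were called higher and 7.32% lower in ZnF4 cells. In ZnF1 cells 22.9% were called higher and 15.2% lower.

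Promoter sequence was matched for 2 of the 8 genes, Hoxb8 and Hoxb4, the one that differed most between the mutants and the one present in all genotypes. The 250 bases before the start are given 5′ to 3′ from the RefSeq promoter table (build GRCm38.p6, plus strand), at chr11:96281655-96281904 for Hoxb8 and chr11:96318017-96318266 for Hoxb4. Capitals mark the letters GGGAA or their reverse complement TTCCC, the core that Ikaros binds.
Hoxb8: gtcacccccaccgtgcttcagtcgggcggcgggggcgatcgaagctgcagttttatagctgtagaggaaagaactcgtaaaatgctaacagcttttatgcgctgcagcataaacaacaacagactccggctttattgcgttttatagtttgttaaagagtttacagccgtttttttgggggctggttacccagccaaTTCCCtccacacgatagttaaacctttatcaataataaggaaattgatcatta
Hoxb4: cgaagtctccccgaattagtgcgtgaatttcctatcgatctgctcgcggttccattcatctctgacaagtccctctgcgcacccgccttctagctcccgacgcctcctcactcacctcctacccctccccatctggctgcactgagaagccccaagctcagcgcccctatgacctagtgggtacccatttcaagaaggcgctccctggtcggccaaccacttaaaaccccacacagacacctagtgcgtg
The Hoxb8 window holds 1 such match, 53 bases before the start, and the Hoxb4 window holds 0. Of 32851 promoters of the same length 56.2% hold at least 1. The letters CCAAT or ATTGG, the box bound by NF-Y, occur 1 time in Hoxb8, 57 bases before the start and sharing 1 base with the match above, and 0 times in Hoxb4 (33.8% of promoters). The letters TATAA or TTATA occur 2 times in Hoxb8 and 0 times in Hoxb4 (22.8% of promoters), and CACGTG, the E-box bound by Usf factors, in neither (6.02%). A match describes letters, not binding.

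Between 10401 and 11233 of 22098 symbols reached 1 RPKM in a library, and read depth is unknown. Ikzf1 itself had 89.2 and 78.7 RPKM in wt cells, 108 and 91.4 RPKM in ZnF1 cells, and 186 and 165.9 RPKM in ZnF4 cells, and whole-transcript values cannot show the loss of 1 finger. All 10 B lineage markers passed the level needed for testing and summed to between 2694.5 and 3122.4 RPKM, as the label of pro-B leukaemia has it. Against wild type 0 were higher and 1 lower in ZnF1 cells, and 2 higher and 1 lower in ZnF4 cells. Cd24a was lower in ZnF1 cells (-0.99 ± 0.11, adjusted p = 0.00249) and in ZnF4 cells (-0.73 ± 0.11, adjusted p = 0.0116). Igll1 (0.54 ± 0.11, adjusted p = 0.0303) and Vpreb2 (0.57 ± 0.10, adjusted p = 0.0201) were higher in ZnF4 cells.

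Markers of other cells moved with the genotype too. The 10 stromal markers summed to 27.7 and 17.1 RPKM in wt cells, 130.5 and 118.1 RPKM in ZnF1 cells, and 13.5 and 11.7 RPKM in ZnF4 cells. Against wild type 8 of the 8 tested were higher in ZnF1 cells, and 3 were lower and 0 higher in ZnF4 cells. The 10 macrophage markers summed to 494 and 314.8 RPKM, 1946.1 and 1838.5 RPKM, and 202.4 and 265.1 RPKM in the same order. Here 10 of 10 were higher in ZnF1 cells, and 6 were lower and 0 higher in ZnF4 cells. Of all tested genes 22.9% were higher and 15.2% lower in ZnF1 cells, and 10.9% higher and 7.32% lower in ZnF4 cells. These percentages stand beside the B lineage markers above and the marker lists below as well. Pdgfra and Pdgfrb, stromal markers, were below 1 RPKM in both wt libraries, a class of which 83.3% was called higher in ZnF1 cells. Both sums were highest in ZnF1 cells and lowest in ZnF4 cells. The part of these markers in the Hoxb differences of either mutant was not tested. Nor was it for the rise of Hoxc6 and Hoxc10 in ZnF1 cells, where these markers rose too.

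Of the 10 stem and early progenitor markers 3 were tested, of which 2 were higher and 0 lower in ZnF1 cells, and 1 higher and 1 lower in ZnF4 cells. Kit was higher in ZnF1 cells (1.60 ± 0.11, adjusted p = 0.00109) and in ZnF4 cells (3.91 ± 0.11, adjusted p = 0.000537). Procr, which encodes the endothelial protein C receptor found on blood stem cells, had 0.3 and 0.2 RPKM in wt cells, 1.3 and 1.9 RPKM in ZnF1 cells and 0.2 RPKM in both ZnF4 libraries. It was higher in ZnF1 cells (1.05 ± 0.14, adjusted p = 0.00458), not called in ZnF4 cells (-0.06 ± 0.14, adjusted p = 0.818), and lower in ZnF4 than in ZnF1 cells (-1.11 ± 0.14, adjusted p = 0.00283). Kit and Procr were both below 1 RPKM in wt cells and tested only because of mutant libraries. Ly6a, which encodes the stem cell antigen Sca-1, fell in ZnF4 cells, from 14.8 and 33.2 RPKM to 2.5 and 5.1 RPKM (-2.33 ± 0.15, adjusted p = 0.00129). Hlf and Mecom were listed at 0 in all libraries, Cd34 was listed at 0 in wt and ZnF4 libraries, and Flt3 was at most 0.4 RPKM. The sum over the list was 15.8 and 34.1 RPKM in wt cells, 29.8 and 39.5 RPKM in ZnF1 cells, and 20.7 and 18.2 RPKM in ZnF4 cells. Mast cell markers, listed at 0 in wt cells, summed to 4.2 and 5.6 RPKM in ZnF1 cells and 0.6 and 0.7 RPKM in ZnF4 cells. Of them Cpa3, a mast cell protease, had 3.3 and 3.4 RPKM in ZnF1 cells and 0.4 and 0.2 RPKM in ZnF4 cells. Tested only because of its ZnF1 values, it was higher in ZnF1 cells (2.12 ± 0.11, adjusted p = 0.001) and not called in ZnF4 cells (0.37 ± 0.11, adjusted p = 0.084). Granulocyte markers summed to 0.5 and 0.2 RPKM in wt cells, 2.3 and 2.5 RPKM in ZnF1 cells, and 0.4 and 0.8 RPKM in ZnF4 cells, with Elane and Mpo at 0 throughout. S100a8, the 1 tested and that only because of its ZnF1 values, was higher in ZnF1 cells (1.07 ± 0.21, adjusted p = 0.0155). It was not called in ZnF4 cells (-0.05 ± 0.21, adjusted p = 0.891). The sum of erythroid and megakaryocyte markers was 26.1 and 31 RPKM in wt cells, 71.7 and 80.8 RPKM in ZnF1 cells, and 14.7 and 21.7 RPKM in ZnF4 cells. Nearly all of it was Pf4, a platelet chemokine, which was higher in ZnF1 cells (1.40 ± 0.11, adjusted p = 0.00132) and lower in ZnF4 cells (-0.68 ± 0.11, adjusted p = 0.0163). The part of mast cell, granulocyte, megakaryocyte and progenitor markers in the Hoxb differences was not tested. T cell markers summed to between 17.6 and 48.7 RPKM, with Cd3e, Cd3g and Cd8a at 0. Of the 3 tested, Cd4, tested only because of its ZnF1 values, was higher in ZnF1 cells (2.77 ± 0.13, adjusted p = 0.001). Lck was lower there (-1.08 ± 0.32, adjusted p = 0.0495), and Cd5 was not called. In ZnF4 cells 0 of the 3 were called, though Lck fell just short of a call (-1.28 ± 0.32, adjusted p = 0.0508). Lck made up the largest part of the T cell sum. It had 36.3 and 46.7 RPKM in wt cells, 11.7 and 30.5 RPKM in ZnF1 cells, and 16.9 and 15.8 RPKM in ZnF4 cells. The part of T cell markers in the Hoxb differences was not tested.

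**Figure D5:**
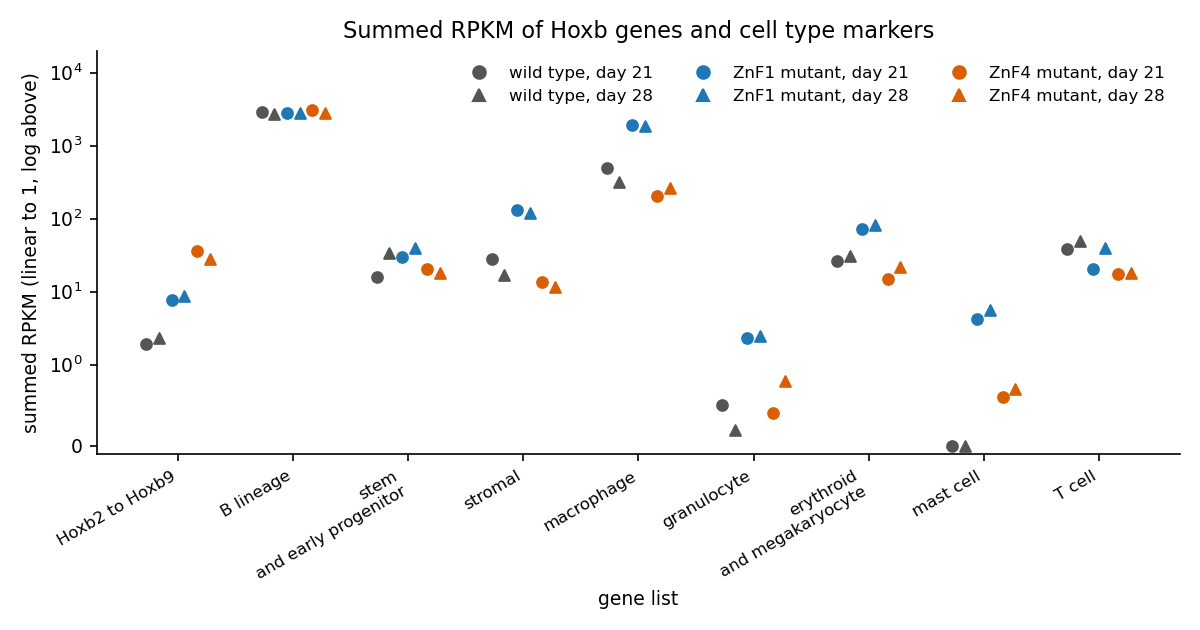
Summed RPKM of Hoxb2 to Hoxb9 and of 8 cell type marker lists (vertical axis, linear up to 1 and logarithmic above); each point is 1 library, with colour for genotype and shape for day. The Hoxb sum is highest in ZnF4 cells (36.1 and 28 RPKM), and stromal and macrophage sums are highest in ZnF1 cells.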

How the data were processed

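Poly(A) RNA of 6 libraries, 1 for each of 3 genotypes at each of 2 days, was enriched with a poly(A) kit and made into fragmented cDNA libraries, per the labels' protocols. The submitters' processing notes name TopHat, bedtools and the mouse build mm9, without versions, annotation release or read length. RPKM values for each RefSeq transcript, rounded to 1 decimal, are what the authors deposited, in 1 table. The 1 row that names no gene was dropped. Low values of short rows showed no single-read steps (27.9% to 36% lay on them at the best depth tried, where 32% to 35% would by the width of the rounding), so depth and counting error are unknown.

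The row with the highest mean stood for each symbol. limma 3.58.1 (R 4.3.3) was fitted with a mean-variance trend to log2(RPKM + 1), a pseudocount of 1, for the 11379 genes with at least 1 RPKM in at least 2 libraries, with genotype and day as additive terms (2 residual degrees of freedom and a prior of 3.22). The fit was tested on simulated data for the ZnF1 comparison. These lacked the rounding of the deposited values, so that test does not cover genes at the rounding limit. Day, given in the labels, is the replicate number and was kept as a block. It pairs libraries across genotypes: their changes between days correlated over genes at 0.226 to 0.433. Alternatives were a fit without the block, other filters, pseudocount and scalings, no trend, transcript rows, summed rows (added after the data were seen) and each library left out. The members, gene lists and the rule for named genes (all members and cluster neighbours; up to 4 genes per list, with Mll1, Meis1, Ezh2 and Cdx4 in any case and then by p in the ZnF4 comparison; the 4 highest other Hox genes; the 3 genes most like each member) were chosen with earlier results of these data known. The reference tables are of build GRCm38, not mm9, so gene coordinates are given only for the printed promoters. A few sequences and genes are not reported here.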

Additional observations from a re-analysis of the deposited data

Results flagged for a closer look

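Hoxb8 moved in opposite directions from day 21 to day 28 in the 2 mutants, by -1.1 RPKM in the ZnF4 mutant (7.5 to 6.4 RPKM) and by 0.2 RPKM in the ZnF1 mutant (0.1 to 0.3 RPKM). Each change is larger than the rounding step. With 1 library per genotype and day the difference was not tested.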

How the results depend on the processing

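Hoxb6 and Hoxb7 in all 3 genotype comparisons, Hoxb8 in both ZnF4 comparisons and Hoxb5 between the mutants kept their direction and their call under every alternative in which they were tested. Under a mean RPKM of at least 4, only Hoxb7 was tested, and 1 Hoxb gene was called in each genotype comparison. With 1 library left out, the genes tested were still those that passed the filter on all 6 libraries. Hoxb3, Hoxb5 and Hoxb8 thus stayed in without a ZnF4 library through which they had passed. Without the replicate block the numbers of Hoxb genes called were the same (5, 5 and 4), and the genes called were 3653, 1687 and 4632 of 11379, against 4336, 2076 and 5177 with it. Without a filter 1137 genes were called in the ZnF4 mutant against wild type. Leaving out 1 library in turn left 1398 to 4475 genes called in the ZnF1 mutant against wild type, 346 to 1230 in the ZnF4 mutant against wild type, and 2526 to 3896 between the mutants, with the lowest counts without the day 28 wild type library in the first 2 comparisons and without the day 21 ZnF1 library in the last. Hoxb genes called went to 2 to 4 in the ZnF1 mutant and to 3 to 5 in the ZnF4 mutant; where a genotype is left with 1 library, that library is assumed to vary like the others. A pseudocount of 0.1 enlarged the differences of low genes (Hoxb7 to 7.20 in the ZnF4 mutant). Under quantile scaling the Hoxb4 difference was -0.0056 in the ZnF1 mutant against wild type and 0.16 between the mutants. Signs that turned between days, none of them called, were those of Hoxb6 with a pseudocount of 0.1 (-0.17), of Hoxb8 with quantile (-0.018) and upper-quartile scaling (-0.0018), and, with 1 library left out, of Hoxb4 (-0.0022 to 0.14), Hoxb6 (-0.069 to 0.15) and Hoxb8 (-0.10 to 0.12). The cause of these changes was not tested, beyond the fewer libraries or genes in those fits. With values rounded to 0.1 RPKM, differences of Hoxb2 and of wild type levels below 0.05 RPKM cannot be read.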
